A study of Mus musculus with 16 samples.

Results

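Ovaries of mice without estrogen receptor alpha (ERα) were compared directly with ovaries of mice without estrogen receptor beta (ERβ). The comparison rests on the arrays titled Ex3aERKO (ERα knockout, n = 4) and Ex3bERKO (ERβ knockout, n = 4), which are 8 of the 16 arrays of the series. The other 8 are a control whose ovaries carry one allele of each receptor (n = 4) and Ex3abERKO (both receptors lacking, n = 4), and they are used here for reference levels and for the estimate of spread. All samples were whole ovaries of mice aged 1 year, and the study asked what both receptors contribute to the transdifferentiation of granulosa cells at this age. Every group carries at least some loss of receptor alleles, since the control is itself described as having a single allele of each receptor. Nothing in the sample descriptions states that replicates were different animals. Each p-value therefore reflects only how these samples scatter, and part of that scatter may be technical.

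ERα and ERβ are nuclear receptors that bind estradiol and then bind DNA at estrogen response elements or through other factors. In the ovary ERβ is known chiefly from granulosa cells, which surround the oocyte and make estradiol with the enzyme aromatase, while ERα is known from theca cells, stroma and surface epithelium. ERα also acts in the hypothalamus and pituitary, where it restrains the release of luteinizing hormone. Granulosa cells have a counterpart in the testis, the Sertoli cell, and theca cells have one in the Leydig cell.

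Levels are given as log2 of the signal relative to the 75th percentile of the same array, and a difference is the mean level in Ex3aERKO minus that in Ex3bERKO, with its standard error after the ± sign. That error comes from the fit to all 16 arrays, so it holds the spread of all 4 groups. Probes are not equally bright, so a level is compared between arrays and never between genes. The 75th percentile of the 16 arrays lay between 1211 and 1806 intensity units and 80.4% to 87.6% of the spots were well above background. Arrays lay on 4 slides, of which 3 held both groups. Ex3aERKO and Ex3bERKO arrays of the same slide deviated together (correlations of 0.239 to 0.451 for the 4 such pairs against -0.309 to 0.155 for the other 12 pairs), so slide was also fitted as a block, fixed where not stated otherwise. Ex3aERKO replicate 2 stood apart in liver genes, with a list median of 1.5 against -5.27 to -4.85 in the other Ex3aERKO arrays. The number of arrays limits the precision of all values.

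The ovaries differed most in genes of the oocyte, which were lower in Ex3aERKO, and in a set that includes Defb8, Obp2a and Defb7, which were higher in Ex3aERKO. Of 24435 features tested, 571 passed an adjusted p of 0.05 in limma with Benjamini-Hochberg adjustment, which is 2.34% of all features. Those higher in Ex3aERKO numbered 158 (0.647%) and those lower numbered 413 (1.69%). Counts for gene lists and families below are to be set against these shares. A difference of at least 2-fold was found for 500 of the 571, 138 higher and 362 lower. The median difference over all features was -0.06. In 566 of the 571 the difference had the same sign on each of the 3 slides that held both groups. The 571 were called on these same arrays, so this agreement is no separate support. With slide as a block 484 features were called, of which 433 were among the 571. Without Ex3bERKO replicate 4 the number called was 282, without Ex3bERKO replicate 1 it was 311, without Ex3aERKO replicate 2 it was 348, and without Ex3bERKO replicate 2 it was 870. A fit to the 8 compared arrays alone called 117. It has fewer residual degrees of freedom, and its errors hold the spread of Ex3aERKO and Ex3bERKO only. The part of each in this lower count was not tested.

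**Figure D1:**
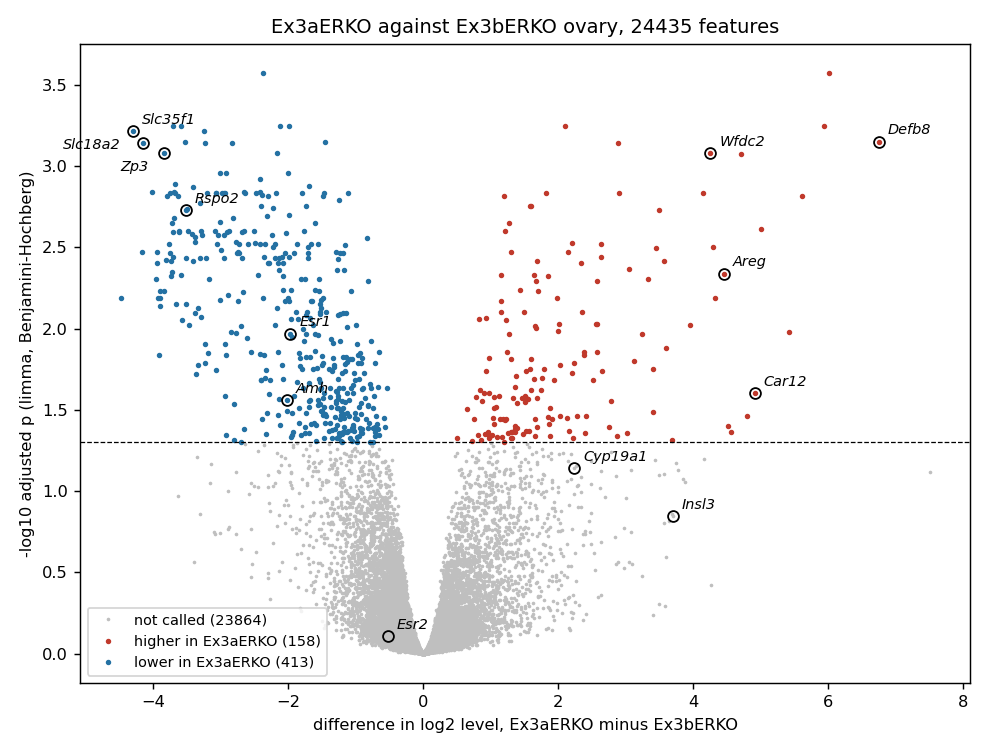
Each point is 1 of 24435 features, placed by its difference in log2 level (Ex3aERKO minus Ex3bERKO, horizontal) and by -log10 of its limma adjusted p (vertical, dashed line at 0.05). Features higher in Ex3aERKO (158) are red, those lower (413) are blue, and the lower side holds a dense group near -3 to -4 that includes Zp3 at -3.84.

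Esr1, which encodes ERα, was among the lower genes. Its probe lies at chromosome 10, 5343241 to 5343300 in the array files' build, mm7. The titles carry the prefix Ex3, which may name an exon, but the labels do not spell out the removed part. The probe was not placed in an exon, so its signal cannot serve as a check of the knockout. The level of Esr1 was -2.18, -2.19, -1.89 and -3.66 in Ex3aERKO replicates 1 to 4 and 0.34, -0.57, -1.06 and -0.73 in Ex3bERKO replicates 1 to 4, against a mean of -0.10 in control and -1.73 in Ex3abERKO. All Ex3aERKO arrays lay below all Ex3bERKO arrays, Ex3aERKO replicate 4 lay lowest, and the difference was -1.97 ± 0.38, adjusted p = 0.0107 (3.92-fold lower). With the mean of both Esr1 probes the difference was -1.505 and the adjusted p 0.0527. Esr2, which encodes ERβ and was read at chromosome 12, 74079895 to 74079954, was -0.32, -1.07, -1.01 and 1.58 in Ex3aERKO and 0.037, -0.58, 1.0 and 0.84 in Ex3bERKO. These ranges overlapped, and the difference was -0.53 ± 0.51, adjusted p = 0.782 (95% interval -1.63 to 0.57). Of the 16 estrogen receptors and coregulators measured, Esr1 was the 1 called gene, and the median difference of the list was 0.020.

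Oocyte genes were lower in Ex3aERKO than in Ex3bERKO as a group. Of 30 listed oocyte genes 26 had a probe that was kept and tested, all 26 had a negative difference, and 22 were called lower, while 1.69% of all features were. The list's median difference was -3.31, against -0.06 over all features. Zp3 and Zp2 encode proteins of the zona pellucida, the coat of the egg. The level of Zp3 was -0.44, -1.72, -0.59 and -2.80 in Ex3aERKO replicates 1 to 4 and 2.64, 1.44, 2.81 and 2.93 in Ex3bERKO replicates 1 to 4. The groups did not overlap, Ex3aERKO replicates 2 and 4 were lowest in their group and Ex3bERKO replicate 2 was lowest in its group. The difference was -3.84 ± 0.46, adjusted p = 0.000832, 14.3-fold. Zp2 differed by -3.81 ± 0.62, adjusted p = 0.00377. Gdf9 and Bmp15 encode growth factors that the oocyte sends to its granulosa cells. Gdf9 was 1.51, 0.49, 1.38 and -0.64 in Ex3aERKO and 4.66, 2.88, 4.80 and 4.94 in Ex3bERKO, a difference of -3.63 ± 0.50, adjusted p = 0.00154. Bmp15 was -3.37, -4.17, -3.32 and -5.46 in Ex3aERKO and 0.13, -1.77, 0.069 and -0.031 in Ex3bERKO, a difference of -3.68 ± 0.47, adjusted p = 0.00129. Npm2, a histone chaperone of the egg, was -0.79, -1.83, -0.97 and -2.19 in Ex3aERKO and 2.40, 0.83, 2.51 and 2.62 in Ex3bERKO, a difference of -3.53 ± 0.40, adjusted p = 0.000706. In all of these genes the order of arrays was alike, with Ex3aERKO replicate 4 lowest of all and Ex3bERKO replicate 2 between the other Ex3bERKO arrays and the Ex3aERKO arrays. Astl, a protease of the egg that acts on the zona after fertilisation, was -3.85, -3.72, -3.64 and -3.52 in Ex3aERKO and -1.46, -2.17, -1.22 and -1.22 in Ex3bERKO and differed by -2.17 ± 0.26, adjusted p = 0.000832. Its Ex3aERKO arrays lay close together, with replicate 4 highest of them.

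The summed signal of the 26 oocyte genes, in multiples of each array's 75th percentile, ran from 8.35 to 23.1 in Ex3aERKO and from 50.1 to 145 in Ex3bERKO. It ran from 47.7 to 90.2 in control and from 16.3 to 24.3 in Ex3abERKO, so that the Ex3aERKO and Ex3abERKO arrays lay below all arrays of the other groups. The control mean lay between the means of Ex3aERKO and Ex3bERKO in 24 of the 26 genes. In whole ovary RNA, fewer oocytes and less of these RNAs per oocyte cannot be told apart. The 4 oocyte genes that were not called were Figla (-2.55 ± 0.72, adjusted p = 0.0893), Kit (-1.28 ± 0.32, adjusted p = 0.055), Dazl (-1.20 ± 0.50, adjusted p = 0.307) and Ybx2 (-0.11 ± 0.25, adjusted p = 0.932). Figla and Dazl are germ cell regulators, and Kit is the receptor for Kit ligand, which granulosa cells make and oocytes and other cells sense. Within slides the list's median difference was -2.49, -2.63 and -5.04. Leaving out Ex3aERKO replicate 2, Ex3abERKO replicate 2 and control replicate 4 together left 14 of the 26 called, with a median of -3.04. These are the arrays with the highest signal of genes from liver, oviduct or red blood cells. The fit to the 8 compared arrays called 4, with a median of -3.31. The list's median level ran from -3.51 to -1.07 in Ex3aERKO and from -0.39 to 1.26 in Ex3bERKO. It ran only from -0.22 to 0.21 in control and from -1.53 to -1.22 in Ex3abERKO. Standard errors from the fit to all arrays thus include the narrower spread of control and Ex3abERKO.

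**Figure D2:**
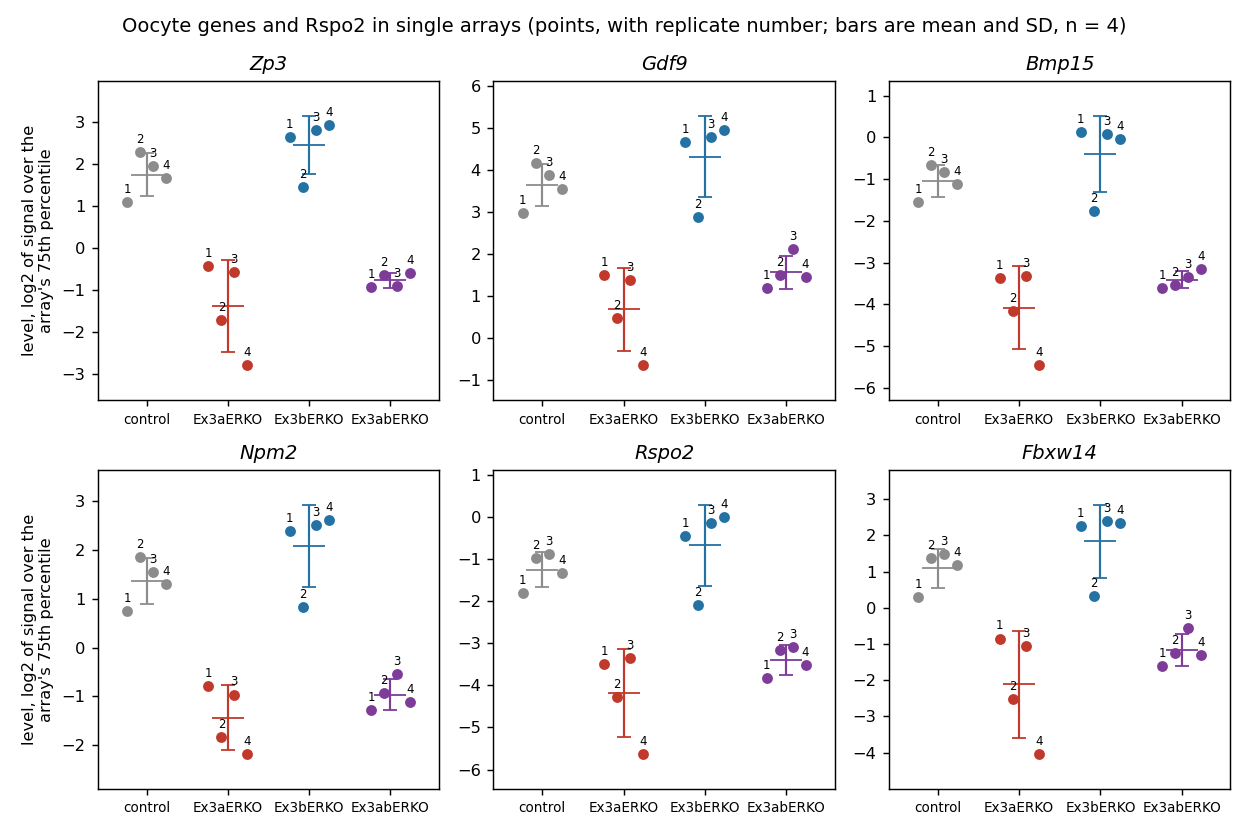
Log2 level over the array's 75th percentile (vertical) for 5 oocyte-expressed genes of different roles and the F-box gene Fbxw14, in each array (points with replicate number) of the 4 groups, with mean and SD (n = 4). In every panel the Ex3aERKO points lie below the Ex3bERKO points, as for Zp3 with a highest Ex3aERKO value of -0.44 and a lowest Ex3bERKO value of 1.44.

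Since the oocyte genes moved together, the sequences before their start sites are shown for 3 of them, the coat protein gene Zp3, the cytoplasmic enzyme gene Padi6 (-3.62 ± 0.54, adjusted p = 0.00252) and the homeobox gene Nobox (-3.34 ± 0.60, adjusted p = 0.00741), which encodes a regulator of oocyte genes. They were chosen after their values were seen. FIGLA binds E-boxes and NOBOX binds elements with the core TAATTG, so both motifs are set in capitals, found on either strand. The E-box was searched as CANNTG, which reads the same on both strands. Sequences are from RefSeq, build GRCm38.p6, and run from 250 bases before the start site to 50 bases after it.
Zp3 promoter (chr5:135979855-135980154, plus strand): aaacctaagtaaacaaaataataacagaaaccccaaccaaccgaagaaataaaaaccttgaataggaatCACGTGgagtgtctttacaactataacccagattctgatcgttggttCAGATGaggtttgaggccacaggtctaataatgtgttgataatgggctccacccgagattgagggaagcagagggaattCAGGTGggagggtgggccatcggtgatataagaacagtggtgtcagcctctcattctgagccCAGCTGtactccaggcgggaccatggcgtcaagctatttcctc
Padi6 promoter (chr4:140742594-140742893, minus strand): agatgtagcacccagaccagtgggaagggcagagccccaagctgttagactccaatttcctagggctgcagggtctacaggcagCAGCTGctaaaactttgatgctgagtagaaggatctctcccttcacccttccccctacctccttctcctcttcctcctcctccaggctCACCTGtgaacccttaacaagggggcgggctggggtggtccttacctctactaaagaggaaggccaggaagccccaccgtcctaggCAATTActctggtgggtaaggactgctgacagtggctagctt
Nobox promoter (chr6:43309505-43309804, minus strand): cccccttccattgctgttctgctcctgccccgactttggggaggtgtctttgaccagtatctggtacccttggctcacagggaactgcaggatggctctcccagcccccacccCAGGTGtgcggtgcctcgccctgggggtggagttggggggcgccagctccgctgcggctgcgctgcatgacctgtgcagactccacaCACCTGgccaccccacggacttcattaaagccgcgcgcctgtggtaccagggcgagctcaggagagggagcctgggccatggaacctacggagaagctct
Zp3 held 4 E-boxes, Padi6 held 2 and the element for NOBOX on its reverse strand, and Nobox held 2 E-boxes. Of the 26 oocyte genes 19 had a promoter in the table. An E-box was present in 17 of these 19 (89.5%), against 72.1% of all 27025 promoters and 67.1% of those of the genes tested. Among called genes it was present in 74.6% of promoters of those lower and 72.9% of those higher in Ex3aERKO. The NOBOX element was present in 2 of the 19 (10.5%), against 8.15% of all promoters and 6.11% of those of the genes tested. For genes called lower its share was 7.14%, and for those called higher 9.35%. These are letter matches and not measured binding sites.

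Several gene families that are expressed in oocytes and early embryos followed the oocyte list, and these families were picked after their values were seen. Beside the family counts below, 1.69% of all features were called lower. Fbxw genes encode F-box proteins with WD repeats. Of 18 Fbxw genes tested 10 were called lower and none higher, from Fbxw26 (-3.96) to Fbxw8 at 0.23, which was not called. The level of Fbxw14 was -0.85, -2.53, -1.05 and -4.03 in Ex3aERKO and 2.26, 0.31, 2.41 and 2.35 in Ex3bERKO, and the difference was -3.95 ± 0.63, adjusted p = 0.00336. The called members were Fbxw13, Fbxw14, Fbxw15, Fbxw16, Fbxw18, Fbxw19, Fbxw21, Fbxw24, Fbxw26 and Fbxw27. Of 14 Nlrp genes, NOD-like receptor family members that include maternal-effect genes of the egg, 9 were called lower, with Nlrp4b (-3.33, -4.21, -3.15 and -6.92 in Ex3aERKO and 0.24, -1.65, 0.17 and 0.29 in Ex3bERKO) furthest apart at -4.17 ± 0.66, adjusted p = 0.00336. The 5 members that were not called were Nlrp10 (-0.70), Nlrp6 (-0.44), Nlrp12 (0.01), Nlrp3 (0.04), which forms an inflammasome, and Nlrp1a (0.17). Of 7 Oas1 genes 6 were called lower, with Oas1d at -3.73 ± 0.63, adjusted p = 0.00474, and Oas1a, the 1 exception, was at 0.07. The 6 called are the paralogs Oas1b to Oas1f and Oas1h, of which Oas1d is known from oocytes. Among other families 3 Obox homeobox genes of 5, 3 Oog genes of 4 and 6 Pramel genes of 10 were also called lower. So were 3 Khdc genes of 4 and 3 Dppa genes of 5, and none of these families had a member called higher. Of 7 Tdrd genes, a family examined in the same way, 2 were called lower, with the others from -1.20 to 0.38. Members of such families share sequence, so a probe can read more than 1 of them and the single-gene values are uncertain.

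Btg4, an adaptor that removes maternal RNA in the egg, was -3.11, -5.0, -3.36 and -6.88 in Ex3aERKO and 0.011, -2.25, -0.27 and -0.20 in Ex3bERKO, a difference of -3.90 ± 0.69, adjusted p = 0.00646. Omt2b (-3.90 ± 0.68, adjusted p = 0.0059), Trim61 (-4.48 ± 0.79, adjusted p = 0.00645) and 4933427D06Rik (-3.92 ± 0.78, adjusted p = 0.0144) were also among the 15 largest differences on the lower side. The call of 4933427D06Rik was lost without Ex3bERKO replicates 1 or 4, adjusted p 0.0541 to 0.0598, and its difference with normexp background correction was -2.02, adjusted p = 0.0263. Trim61 was -2.0, -2.25, -3.71 and -4.10 in Ex3aERKO and 1.28, 0.19, 2.20 and 2.21 in Ex3bERKO, with Ex3aERKO replicates 3 and 4 lowest and no overlap. The order of its Ex3aERKO arrays thus differed from that of Zp3, where replicates 2 and 4 were lowest.

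Other called genes on the lower side encode signals, transporters and enzymes. Rspo2 encodes an R-spondin that strengthens Wnt signalling and is known from oocytes. Its level was -3.49, -4.28, -3.34 and -5.63 in Ex3aERKO and -0.45, -2.09, -0.13 and 0.0056 in Ex3bERKO, with no overlap, and it differed by -3.52 ± 0.50, adjusted p = 0.00186, 11.5-fold. Of 28 Wnt pathway genes tested, Rspo2 and the ligand gene Wnt2 (-0.93 ± 0.21, adjusted p = 0.0337) were called lower, none was called higher, and the median was 0.14. Wnt2 was not called with slide as a block (adjusted p = 0.0659) or without Ex3aERKO replicates 1, 2 or 4 or Ex3bERKO replicates 1, 3 or 4, adjusted p 0.0641 to 0.12, nor with normexp background correction (adjusted p = 0.646).

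Slc18a2, which encodes the vesicular monoamine transporter and stood on the granulosa cell list, was -1.55, -1.09, -2.0 and -2.65 in Ex3aERKO and 2.73, 0.58, 2.65 and 3.38 in Ex3bERKO. The groups did not overlap, the control values of 1.45, 2.38, 1.84 and 1.71 were near those of Ex3bERKO, and the difference was -4.16 ± 0.49, adjusted p = 0.000723. It was the 1 called gene of 22 granulosa cell genes, whose median difference was 0.27. Slc35f1, a solute carrier, was -6.43, -6.77, -7.19 and -6.15 in Ex3aERKO and -1.01, -2.86, -2.31 and -3.15 in Ex3bERKO. It was well above background on 3 of 4 Ex3aERKO arrays and differed by -4.30 ± 0.48, adjusted p = 0.000608, and its control level of -1.81 ± 0.24 (SD) was near that of Ex3bERKO, while Ex3abERKO was at -7.34 ± 0.98 (SD). Prok2, a secreted ligand of prokineticin receptors, was -6.72, -6.78, -8.81 and -5.83 in Ex3aERKO and -2.71, -4.75, -3.20 and -2.08 in Ex3bERKO and differed by -3.85 ± 0.67, adjusted p = 0.00586. With normexp background correction the call of Prok2 was lost (-1.75, adjusted p = 0.199), and Slc35f1 kept its call at a smaller difference (-2.37, adjusted p = 0.00258).

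Srd5a1 encodes steroid 5-alpha-reductase, which turns testosterone into dihydrotestosterone. Its level was 0.66, -0.20, 0.16 and 0.81 in Ex3aERKO and 2.50, 2.08, 1.86 and 3.52 in Ex3bERKO, with no overlap, a mean of 3.13 in control and -1.26 in Ex3abERKO. The difference was -2.13 ± 0.36, adjusted p = 0.00437, and Srd5a1 was the 1 called gene of 23 theca and Leydig cell genes, whose median difference was 0.0055. Amh, the anti-Müllerian hormone of growing follicles and of immature Sertoli cells, was -3.15, -2.69, -3.82 and -4.02 in Ex3aERKO and -1.37, -2.93, -0.75 and -0.56 in Ex3bERKO. Ex3bERKO replicate 2 lay within the Ex3aERKO range, and the other Ex3bERKO arrays were higher than every Ex3aERKO array. The difference was -2.02 ± 0.45, adjusted p = 0.0276, with adjusted p = 0.0573 when slide was a block, and the call was also lost without Ex3aERKO replicates 1, 3 or 4 or Ex3bERKO replicates 1, 3 or 4, adjusted p 0.0504 to 0.11. Among 15 genes shared by both supporting cell types Amh was the 1 called, and the list median was 0.0054.

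Of 24 cell cycle genes all had a negative difference, with a median of -0.94, and 2 were called lower. Over all features 1.69% were called lower. Birc5, which encodes survivin, was 2.14, 1.61, 1.90 and 2.83 in Ex3aERKO and 3.67, 2.73, 3.93 and 3.74 in Ex3bERKO and differed by -1.40 ± 0.29, adjusted p = 0.0177. Ccnb1, cyclin B1, was -2.09, -2.74, -2.58 and -1.29 in Ex3aERKO and -0.55, -1.71, -0.32 and -0.26 in Ex3bERKO and differed by -1.47 ± 0.36, adjusted p = 0.0472, and its call was lost with slide as a block (adjusted p = 0.0808). In both genes Ex3aERKO replicate 4 and Ex3bERKO replicate 2 overlapped. Without Ex3aERKO replicate 4, 11 of the 24 were called, and without Ex3bERKO replicate 2, 8 were. The call of Birc5 was lost without Ex3aERKO replicates 2 or 3 or Ex3bERKO replicates 1, 3 or 4, adjusted p 0.0582 to 0.0723, and that of Ccnb1 without any 1 of 13 arrays (all but Ex3aERKO replicate 4, Ex3bERKO replicate 2 and Ex3abERKO replicate 1), adjusted p 0.0533 to 0.165. Neither was called with normexp background correction (adjusted p = 0.0501 and 0.112). Summed cell cycle signal was 59.6 to 107 in Ex3aERKO and 84.4 to 156 in Ex3bERKO.

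Of 22 endothelial genes tested, 20 had a negative difference, 3 were called lower and none higher, with a median of -0.52. Over all features 1.69% were called lower. Egfl7, a secreted protein of endothelium, was 2.23, 2.01, 2.04 and 2.14 in Ex3aERKO and 2.61, 3.05, 2.81 and 3.06 in Ex3bERKO and differed by -0.78 ± 0.15, adjusted p = 0.012. The endothelial transcription factor genes Sox18 and Erg differed by -0.94 ± 0.19, adjusted p = 0.0141 and by -0.71 ± 0.17, adjusted p = 0.0459. No Ex3aERKO array overlapped the Ex3bERKO range in any of these 3 genes. Each call was lost when some single arrays were left out, that of Egfl7 without Ex3bERKO replicate 4, adjusted p = 0.0546, that of Sox18 without Ex3aERKO replicate 3 or Ex3bERKO replicate 4, adjusted p 0.0515 to 0.0628, and that of Erg without any 1 of 13 arrays (all but Ex3bERKO replicate 3 and Ex3abERKO replicates 2 and 3), adjusted p 0.0535 to 0.158, or with normexp background correction (adjusted p = 0.0944). The level of Lum, a matrix proteoglycan, was 2.76, 2.86, 2.76 and 1.80 in Ex3aERKO and 4.96, 5.01, 3.05 and 4.67 in Ex3bERKO, with Ex3bERKO replicate 3 near the Ex3aERKO arrays, a difference of -1.88 ± 0.40, adjusted p = 0.0214 and a call lost without Ex3bERKO replicates 1 or 4, adjusted p 0.0802 to 0.0825. It was the 1 called gene of 22 for stroma and matrix.

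Rgcc, a regulator of cell cycle progression on the luteal list, was 1.08, 0.75, 0.54 and 0.021 in Ex3aERKO and 2.61, 2.25, 2.22 and 2.42 in Ex3bERKO and differed by -1.78 ± 0.34, adjusted p = 0.0101. Mt3, a metallothionein gene on the same list, differed by -0.74 ± 0.18, adjusted p = 0.04999, and was not called without any 1 of 14 arrays (all but Ex3abERKO replicates 2 and 3), adjusted p 0.0561 to 0.135, or with normexp background correction (adjusted p = 0.189). These were the 2 called of 17 luteal genes, whose median difference was 0.20. Myc, a growth regulator, was the 1 called of 18 immediate early genes, at 0.22, 0.22, 0.18 and -0.22 in Ex3aERKO and 1.55, 0.65, 1.31 and 1.13 in Ex3bERKO and -1.06 ± 0.18, adjusted p = 0.00586, while the median of the list was 0.43.

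The genes that were higher in Ex3aERKO included several secreted proteins. Defb8 and Defb7 encode beta-defensins, small antimicrobial peptides. The level of Defb8, probed at chromosome 8, 19422609 to 19422668 in mm7, was 0.78, 1.38, 0.31 and 0.51 in Ex3aERKO replicates 1 to 4 and -6.81, -4.51, -4.93 and -7.76 in Ex3bERKO replicates 1 to 4. The Ex3aERKO arrays lay close together and far above the Ex3bERKO arrays, the control arrays (-5.48, -7.63, -5.02 and -6.43) and the Ex3abERKO arrays (-5.36, -3.44, -2.22 and -3.63). The difference was 6.75 ± 0.77, adjusted p = 0.000706, 108-fold, and 3 of 4 Ex3bERKO arrays were well above background. Defb7 was -2.33, -1.54, -3.29 and -2.89 in Ex3aERKO and -8.24, -6.58, -8.39 and -9.26 in Ex3bERKO, a difference of 5.61 ± 0.77, adjusted p = 0.00154, with 1 of 4 Ex3bERKO arrays well above background. Normexp background correction has an offset that compresses differences between dim signals. With it the difference of Defb8 was 5.0, adjusted p = 0.00207, and that of Defb7 was 2.53, adjusted p = 0.0963. Of 22 beta-defensin genes tested, 2 were higher and 1, Defb41, was lower, beside 0.647% and 1.69% of all features. Defb7 and Defb8 are neighbouring paralogs, and a probe for one could read the other.

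Obp2a, an odorant-binding lipocalin, and Folh1, a folate hydrolase of the cell surface, were not well above background on any Ex3bERKO array. Obp2a was at -2.74 ± 0.97 (SD) in Ex3aERKO, at least 20.8-fold higher (adjusted p = 0.000562). Folh1 was at -4.49 ± 1.12 (SD), at least 6.21-fold higher (adjusted p = 0.000845). With normexp neither was called, with differences of 2.27, adjusted p = 0.142 for Obp2a and 1.28, adjusted p = 0.726 for Folh1. Bhmt, which remethylates homocysteine with betaine, was 2.63, 2.49, 1.99 and 1.61 in Ex3aERKO and -3.64, -2.18, -1.76 and -3.74 in Ex3bERKO, a difference of 5.01 ± 0.74, adjusted p = 0.00243. Its control arrays, at 2.48, -1.33, 1.36 and 1.30, were mostly on the Ex3aERKO side.

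The start regions of Defb8, Defb7 and Bhmt are shown because these 3 of the most raised genes, and no others of the 107 genes called higher that had a promoter in the table, held a match to the binding element of steroidogenic factor 1 (SF-1, Nr5a1), a regulator of gonadal genes. The element was searched as CAAGGTCA on both strands and is in capitals.
Defb8 promoter (chr8:19447557-19447856, minus strand): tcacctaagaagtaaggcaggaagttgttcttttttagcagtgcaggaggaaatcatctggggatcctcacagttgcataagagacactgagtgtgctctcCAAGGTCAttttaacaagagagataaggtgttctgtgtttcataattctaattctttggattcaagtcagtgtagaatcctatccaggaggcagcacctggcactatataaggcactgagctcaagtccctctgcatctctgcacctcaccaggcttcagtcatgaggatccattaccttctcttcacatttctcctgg
Defb7 promoter (chr8:19494847-19495146, plus strand): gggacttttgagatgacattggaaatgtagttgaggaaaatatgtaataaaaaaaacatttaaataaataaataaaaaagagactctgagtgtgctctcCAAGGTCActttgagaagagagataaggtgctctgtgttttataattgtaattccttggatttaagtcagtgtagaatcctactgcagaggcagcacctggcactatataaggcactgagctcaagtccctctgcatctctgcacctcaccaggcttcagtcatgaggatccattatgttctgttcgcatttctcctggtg
Bhmt promoter (chr13:93637709-93638008, minus strand): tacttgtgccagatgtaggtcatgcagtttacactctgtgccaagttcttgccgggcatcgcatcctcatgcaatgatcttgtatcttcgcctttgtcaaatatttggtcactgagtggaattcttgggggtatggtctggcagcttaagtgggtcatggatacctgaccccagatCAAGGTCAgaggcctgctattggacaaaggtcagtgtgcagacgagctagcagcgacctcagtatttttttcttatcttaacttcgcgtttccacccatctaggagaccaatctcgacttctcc
This was 2.8% of the promoters of higher genes, against 0.357% of those of lower genes (1 of 280), 1.19% of genes tested and 1.53% of all. The promoters of Defb7 and Defb8 shared an unbroken run of 89 bases, so they are not independent examples.

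Among the other leading genes Car12, a membrane-bound carbonic anhydrase, was 2.85, 3.66, 1.31 and 2.05 in Ex3aERKO and -3.78, 1.27, -3.08 and -4.16 in Ex3bERKO. Ex3bERKO replicate 2, at 1.27, nearly reached the lowest Ex3aERKO array, at 1.31, while the other Ex3bERKO arrays were below -3. The difference was 4.91 ± 1.07, adjusted p = 0.0248, and the call was lost without Ex3aERKO replicates 1 or 2 or Ex3bERKO replicates 1, 3 or 4, adjusted p 0.0639 to 0.0994. None of 15 liver genes was called, 14 of the 15 differences were positive, and their summed signal was 166 in Ex3aERKO replicate 2, 2.48 to 6.52 in the other Ex3aERKO arrays and 2.75 to 6.66 in Ex3bERKO.

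Wfdc2, a secreted protease inhibitor-like protein of epithelia, was 3.78, 4.84, 4.78 and 2.64 in Ex3aERKO and -0.22, 0.68, -0.44 and -0.98 in Ex3bERKO. The groups did not overlap, the control level was -1.02 ± 0.17 and the Ex3abERKO level 4.03 ± 0.93 (SD), and the difference was 4.25 ± 0.51, adjusted p = 0.000832. Ly6d, a membrane-anchored surface protein, was 4.37, 4.37, 3.94 and 3.34 in Ex3aERKO and 0.31, 1.70, -1.07 and -2.11 in Ex3bERKO and differed by 4.30 ± 0.67, adjusted p = 0.00314. Fxyd4, a regulator of the sodium pump, was 1.19, -2.21, 0.21 and -0.90 in Ex3aERKO and -5.04, -4.96, -4.82 and -4.16 in Ex3bERKO and differed by 4.32 ± 0.76, adjusted p = 0.00645, with adjusted p = 0.0958 after normexp background correction. Prom1, a protein of membrane protrusions, was -1.66, -0.28, -0.71 and -2.72 in Ex3aERKO and -5.80, -5.73, -5.46 and -4.97 in Ex3bERKO and differed by 4.15 ± 0.56, adjusted p = 0.00147. It was the 1 called of 14 oviduct genes, whose summed signal was 1.84 to 7.51 in Ex3aERKO and 1.90 to 2.65 in Ex3bERKO. Their defining members Ovgp1 (1.03 ± 1.17, adjusted p = 0.83) and Foxj1 (1.52 ± 1.30, adjusted p = 0.737) were not called, and the part of oviduct tissue in the Prom1 value was not tested. Spink8, a Kazal-type protease inhibitor, was 0.41, 1.45, 2.75 and -1.47 in Ex3aERKO and -5.65, -1.64, -2.11 and -5.71 in Ex3bERKO and differed by 4.56 ± 1.10, adjusted p = 0.0429, but not with slide as a block (adjusted p = 0.0702), and its call was lost with normexp (adjusted p = 0.145) and without any 1 of 11 arrays (all but Ex3aERKO replicate 4, Ex3bERKO replicates 2 and 3 and Ex3abERKO replicates 1 and 3), adjusted p 0.0507 to 0.156. None of 15 surface epithelium genes was called, with a median of 0.58, and of these Muc16 had the largest t, at 1.61 ± 0.41, adjusted p = 0.0588. Within slides 1, 3 and 4 the median of this list was 1.08, 1.57 and -0.80.

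**Figure D3:**
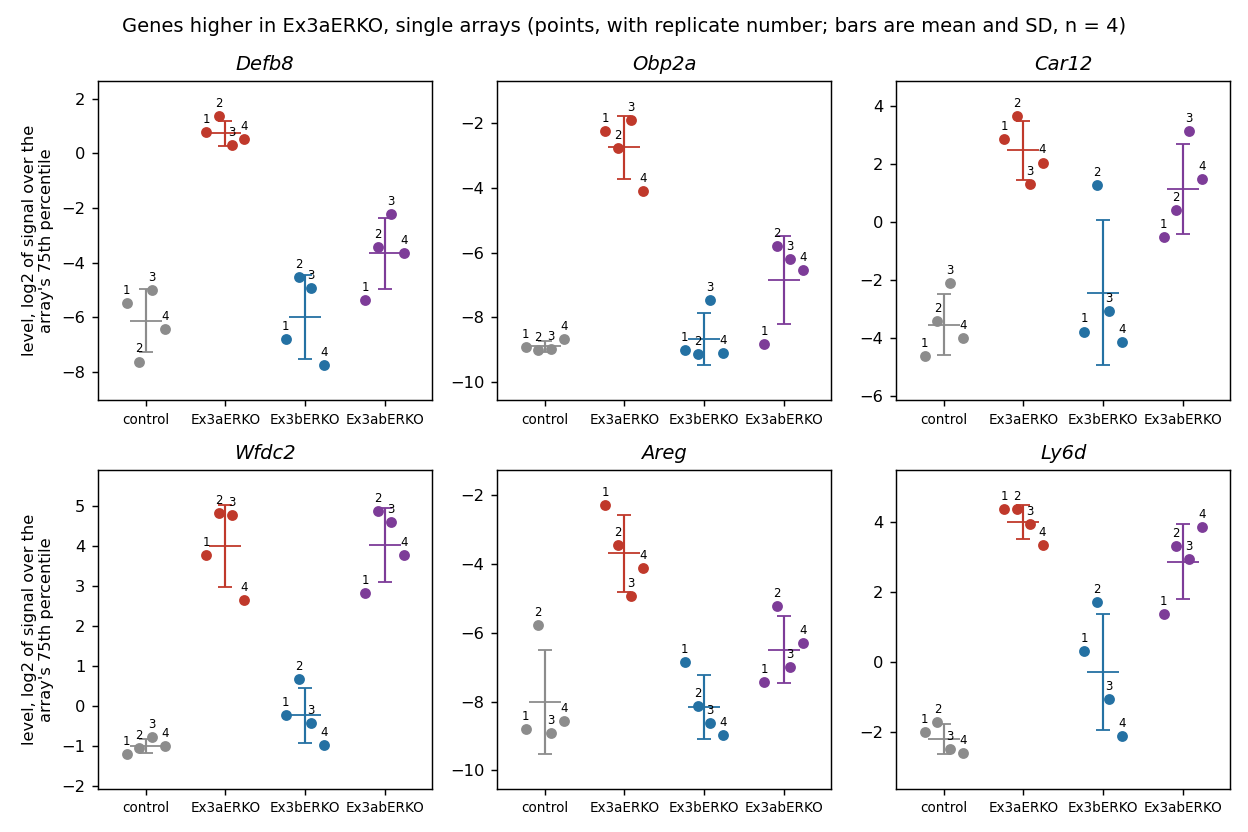
Log2 level over the array's 75th percentile (vertical) for 6 genes called higher in Ex3aERKO, in each array (points with replicate number) of the 4 groups, with mean and SD (n = 4). Defb8 is highest in the Ex3aERKO arrays, Wfdc2 is high in Ex3aERKO and Ex3abERKO, and for Car12 the Ex3bERKO replicate 2 value of 1.27 lies close to the lowest Ex3aERKO value of 1.31.

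Areg encodes amphiregulin, a ligand of the epidermal growth factor receptor that luteinizing hormone induces in the follicle before ovulation. Its level was -2.28, -3.45, -4.93 and -4.12 in Ex3aERKO and -6.86, -8.14, -8.62 and -8.98 in Ex3bERKO, with 1 of 4 Ex3bERKO arrays well above background. The groups did not overlap and the difference was 4.45 ± 0.75, adjusted p = 0.00458, but with normexp background correction it was 1.505, adjusted p = 0.443. Areg was the 1 called gene of 17 estrogen response genes (median 0.32) and the 1 called of 18 ovulation genes (median 0.38). The start region of Areg is shown because it holds a complete cAMP response element, TGACGTCA, the kind of site through which luteinizing hormone signals can act, set in capitals.
Areg promoter (chr5:91139349-91139648, plus strand): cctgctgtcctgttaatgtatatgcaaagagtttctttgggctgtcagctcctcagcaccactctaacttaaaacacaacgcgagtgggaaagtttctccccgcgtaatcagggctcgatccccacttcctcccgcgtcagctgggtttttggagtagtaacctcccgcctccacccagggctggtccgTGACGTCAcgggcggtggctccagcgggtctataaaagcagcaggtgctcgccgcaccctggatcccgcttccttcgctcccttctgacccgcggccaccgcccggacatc
This element was present in 1.87% of the promoters of genes called higher (2 of 107), in 1.79% of those called lower (5 of 280), in 2.64% of those of the genes tested and in 1.88% of all promoters. A full estrogen response element was also searched, and was found in 0 of the 107, Areg among them, and 0 of the 280. It was rare everywhere, in 0.0414% of promoters of genes tested and 0.0666% of all.

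Of 32 genes of TGF beta and BMP signalling 2 were called higher and 0 lower, with a median of 0.20. Over all features 0.647% were called higher. Grem1, a secreted antagonist of BMPs, was 0.11, -2.38, -0.97 and 2.20 in Ex3aERKO and -4.85, -3.32, -5.44 and -5.48 in Ex3bERKO and differed by 4.51 ± 1.07, adjusted p = 0.0399. Bmp6, a BMP ligand, was 0.29, 0.57, 0.14 and 0.41 in Ex3aERKO and -1.08, -0.50, -0.74 and -0.78 in Ex3bERKO and differed by 1.12 ± 0.25, adjusted p = 0.0261. Neither was called with slide as a block (adjusted p = 0.069 and 0.0774) or with normexp background correction (adjusted p = 0.0501 and 0.112). Both calls were lost without any 1 of several arrays. With 1 array left out the difference stayed at 3.691 to 5.219 for Grem1 and at 1.021 to 1.215 for Bmp6. The call of Grem1 was lost without control replicates 1 or 4, Ex3aERKO replicates 1, 3 or 4 or Ex3bERKO replicates 1, 3 or 4, adjusted p 0.0555 to 0.134, and that of Bmp6 without Ex3aERKO replicates 1 or 2 or Ex3bERKO replicates 1, 3 or 4, adjusted p 0.0568 to 0.0971.

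Lipid droplet genes included 3 of 19 called higher and 0 lower, with a median of 0.24, while 0.647% of all features were called higher. Plin4 and Plin5 encode droplet coat proteins. Plin4 was 1.44, 1.60, 0.57 and 1.90 in Ex3aERKO and -0.18, 0.51, -1.37 and -0.43 in Ex3bERKO, and all control arrays, at 5.61, 4.34, 5.31 and 4.97, were far above both groups. Plin4 differed by 1.75 ± 0.38, adjusted p = 0.0239, and its call was lost without Ex3aERKO replicates 1, 2 or 4 or Ex3bERKO replicates 1, 3 or 4, adjusted p 0.0505 to 0.0786. Plin5 was 0.96, 1.10, 0.58 and -0.29 in Ex3aERKO and -1.98, -1.36, -1.29 and -2.63 in Ex3bERKO against a control mean of 2.93, and differed by 2.41 ± 0.55, adjusted p = 0.0342, with adjusted p = 0.0556 when slide was a block and a call lost without Ex3aERKO replicates 1, 2 or 3 or Ex3bERKO replicates 1, 3 or 4, adjusted p 0.0508 to 0.132. Cidea, which promotes droplet fusion, was -2.14, 0.49, 0.31 and -2.05 in Ex3aERKO and -2.36, -3.04, -3.58 and -3.97 in Ex3bERKO, with a mean of 2.91 in Ex3abERKO. It differed by 2.39 ± 0.58, adjusted p = 0.0441, was not called with slide as a block (adjusted p = 0.0762) or with normexp background correction (adjusted p = 0.175), and its call was lost without any 1 of 12 arrays (all but Ex3aERKO replicates 1 and 4 and Ex3abERKO replicates 2 and 3), adjusted p 0.0526 to 0.157. Plin1, Plin2 and Plin3 were not called, at -1.06, -0.25 and 0.05.

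Ptgs1, the cyclooxygenase that starts prostaglandin synthesis, was 1.14, 1.59, 1.24 and 0.14 in Ex3aERKO and -0.35, -0.33, -0.48 and -1.12 in Ex3bERKO and differed by 1.60 ± 0.34, adjusted p = 0.0238. It was the 1 called of 19 prostaglandin genes, with a median of 0.14, and its call was lost without Ex3aERKO replicates 1, 2 or 3 or Ex3bERKO replicates 1, 3 or 4, adjusted p 0.0527 to 0.0966. Rhox5, an X-linked homeobox gene known from Sertoli cells and under androgen control there, was 1.23, 0.27, 0.43 and 0.69 in Ex3aERKO and -1.18, -1.68, -1.42 and -1.48 in Ex3bERKO. The groups did not overlap, control and Ex3abERKO means were lower still at -2.04 and -2.96, and the difference was 2.10 ± 0.22, adjusted p = 0.000562. Corin, a serine protease on the Sertoli list, differed by 0.96 ± 0.23, adjusted p = 0.0432, with adjusted p = 0.0644 when slide was a block, a difference of 0.47, adjusted p = 1 with normexp background correction and a call lost without any 1 of 11 arrays (all but control replicates 2 and 4, Ex3bERKO replicate 2 and Ex3abERKO replicates 2 and 3), adjusted p 0.0539 to 0.148. These were the 2 called of 25 Sertoli cell genes, whose median was 0.14.

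Of 21 macrophage genes tested all had a positive difference, with a median of 0.35, and 1 was called. The direction was not shared by all slides, since the list's median difference was 0.09, 0.54 and -0.32 within slides 1, 3 and 4. Cd163, the scavenger receptor for haemoglobin, was 0.50, 0.43, 0.82 and -0.31 in Ex3aERKO and -1.24, -1.40, -3.49 and -3.55 in Ex3bERKO, with Ex3bERKO replicates 1 and 2 nearer to Ex3aERKO than replicates 3 and 4 were. It differed by 2.78 ± 0.62, adjusted p = 0.0279, with adjusted p = 0.059 when slide was a block, 0.06 with normexp background correction and a call lost without Ex3aERKO replicates 1, 2 or 3 or Ex3bERKO replicates 3 or 4, adjusted p 0.0686 to 0.111. Its relative Cd163l1 differed by 3.41 ± 0.78, adjusted p = 0.0327. Of 5 Cd209 genes, C-type lectins of macrophages and dendritic cells, Cd209a, Cd209b and Cd209d were called higher. They differed by 1.88 ± 0.46, 3.57 ± 0.59 and 3.13 ± 0.63 (adjusted p = 0.0459, 0.00384 and 0.0157). Cd209c (0.19) and Cd209g (1.90) were not called. The Ex3bERKO values of Cd209b ranged from -4.09 to -0.55. Calls of Cd163l1 and the Cd209 genes under the other settings were not examined. The Cd163 and Cd209 families were picked after their values were seen, and 0.647% of all features were called higher. Summed macrophage signal was 416 to 652 in Ex3aERKO and 315 to 567 in Ex3bERKO, so the ranges overlapped. Mylk, the myosin light chain kinase of smooth muscle, was 3.96, 4.08, 3.72 and 4.23 in Ex3aERKO and 2.87, 2.98, 3.01 and 3.35 in Ex3bERKO and differed by 0.95 ± 0.23, adjusted p = 0.0442. It was the 1 called of 14 smooth muscle genes, with adjusted p = 0.0955 when slide was a block, 0.0868 with normexp background correction and a call lost without any 1 of 13 arrays (all but Ex3abERKO replicates 1, 2 and 3), adjusted p 0.052 to 0.14. With the mean of its probes its difference was 0.43, and 1 of its 2 other probes had the opposite sign.

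Insl3, Hsd17b3, Lcn2 and Ptgds were high in all Ex3aERKO arrays and varied widely among Ex3bERKO arrays, and their differences did not pass the test. Insl3, a peptide hormone of Leydig and theca cells, was 6.74, 6.72, 6.73 and 6.49 in Ex3aERKO replicates 1 to 4 and 0.42, 5.65, 6.23 and -0.41 in Ex3bERKO replicates 1 to 4. Ex3bERKO replicates 2 and 3 were near the Ex3aERKO arrays and replicates 1 and 4 were near the control arrays, which were -0.26, -0.51, -0.018 and -0.16. The difference was 3.70 ± 1.18, adjusted p = 0.142. Hsd17b3, the enzyme that makes testosterone in the testis, was 1.17, 2.37, 1.97 and 1.82 in Ex3aERKO and -2.31, 1.25, 1.17 and -2.63 in Ex3bERKO. Its control arrays ran from -4.51 to -4.34, so all 8 arrays compared were above control, and the difference was 2.46 ± 0.80, adjusted p = 0.153. Lcn2, a secreted lipocalin, was 3.85, 3.66, 3.89 and 2.80 in Ex3aERKO and -3.01, 1.73, 2.42 and -3.57 in Ex3bERKO and differed by 4.16 ± 1.08, adjusted p = 0.0635. Ptgds, the prostaglandin D synthase of Sertoli cells, was 5.67, 5.66, 5.57 and 5.02 in Ex3aERKO and -0.70, 3.57, 4.80 and -0.72 in Ex3bERKO and differed by 3.75 ± 0.99, adjusted p = 0.0668. In these 4 genes the same pair of Ex3bERKO arrays, replicates 1 and 4, was low, and both lay on slide 3, where Ex3aERKO replicate 1 was high. With slide as a random block Ptgds passed, with adjusted p = 0.0465, and Insl3, Hsd17b3 and Lcn2 did not (adjusted p = 0.116, 0.109 and 0.0508). Leaving out Ex3bERKO replicate 2 gave an adjusted p under 0.05 for Insl3, Hsd17b3, Lcn2 and Ptgds, and leaving out Ex3bERKO replicate 3 did so for all of them but Hsd17b3, which had an adjusted p of 0.0796.

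Cyp19a1, aromatase, which makes estradiol from androgens, was 5.05, 4.18, 4.49 and 5.23 in Ex3aERKO and 3.76, 2.39, 2.24 and 1.62 in Ex3bERKO. All Ex3aERKO arrays were above all Ex3bERKO arrays, and the difference of 2.24 ± 0.60, adjusted p = 0.0721 did not pass. It did so with slide as a random block, adjusted p = 0.0409, and without control replicate 2 or Ex3bERKO replicate 1, adjusted p 0.0152 to 0.0483. Cldn11, a tight junction protein of Sertoli cells, was 2.11, 2.08, 2.33 and 0.91 in Ex3aERKO and -0.25, 1.31, 0.47 and -1.20 in Ex3bERKO. Ex3aERKO replicate 4 and Ex3bERKO replicate 2 overlapped, and the difference was 1.77 ± 0.46, adjusted p = 0.0608, which passed with slide as a random block, adjusted p = 0.043, and without Ex3aERKO replicate 4 or Ex3bERKO replicate 2, adjusted p 0.00998 to 0.0248. Cyp17a1, the enzyme that makes androgens in theca and Leydig cells, was 3.54, 3.58, 3.81 and 3.08 in Ex3aERKO and 3.63, 4.19, 3.06 and 3.11 in Ex3bERKO, while the control arrays were 0.55, 2.16, 0.073 and 0.19 and the Ex3abERKO mean was 0.52. Its difference was 0.0055 ± 0.38, adjusted p = 0.998 (95% interval -0.81 to 0.82). All arrays of both knockouts were above all control arrays.

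**Figure D4:**
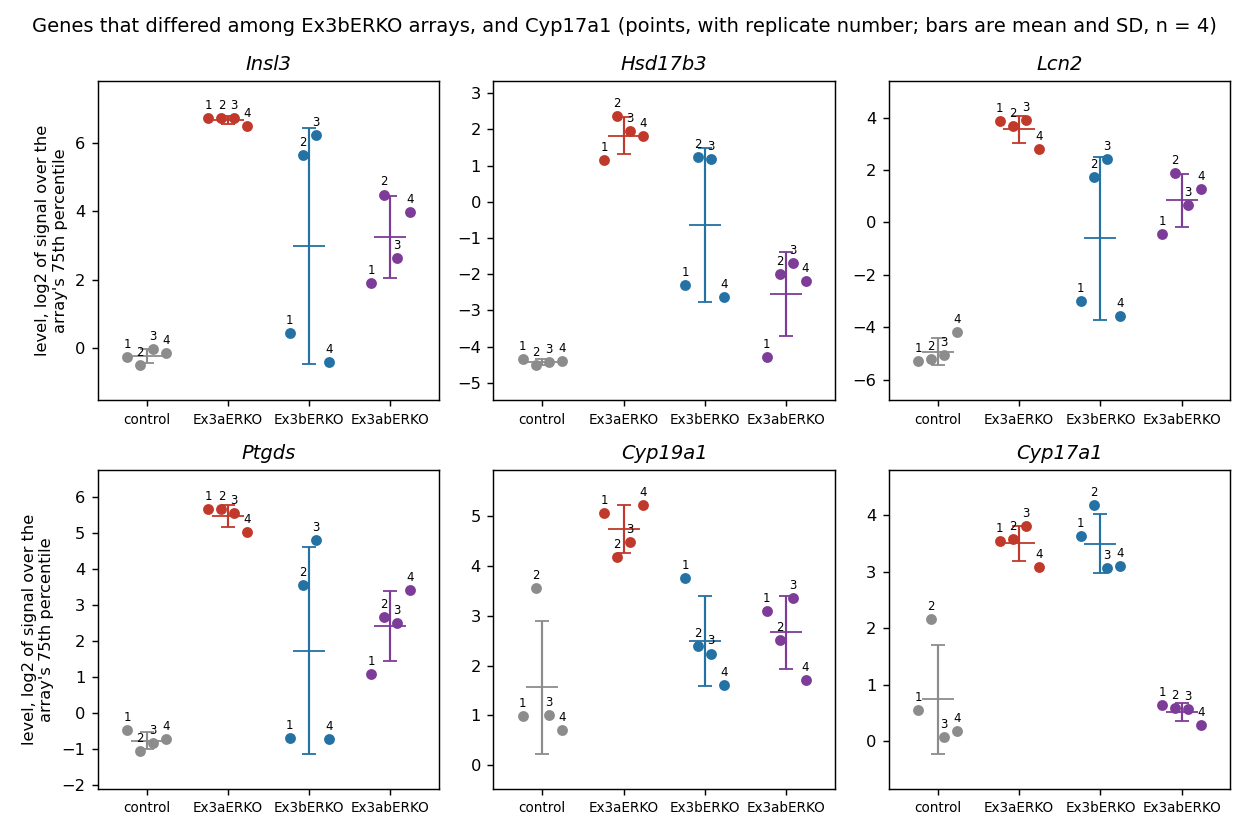
Log2 level over the array's 75th percentile (vertical) of 6 genes in each array (points with replicate number) of the 4 groups, with mean and SD (n = 4). For Insl3, Hsd17b3, Lcn2 and Ptgds the Ex3bERKO replicates 2 and 3 lie near the Ex3aERKO arrays and replicates 1 and 4 lie lower, as at 5.65 and 6.23 against 0.42 and -0.41 for Insl3, while Cyp17a1 overlaps between the knockouts.

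Other genes of supporting cell identity did not pass the test. Foxl2, the transcription factor that maintains granulosa cells, was -1.99, -2.39, -2.50 and -2.36 in Ex3aERKO and -2.41, -2.43, -2.53 and -2.11 in Ex3bERKO and differed by 0.063 ± 0.15, adjusted p = 0.936 (95% interval -0.26 to 0.39). Sox9, its counterpart in Sertoli cells, was -1.27, -0.79, -0.92 and -2.37 in Ex3aERKO and -1.66, -1.70, -1.84 and -2.83 in Ex3bERKO and differed by 0.67 ± 0.37, adjusted p = 0.518 (interval -0.13 to 1.47), and 1 of its 2 other probes had the opposite sign. Sox8, a related factor, differed by 0.14 ± 0.32, adjusted p = 0.932 (interval -0.54 to 0.81). Sox9 and Sox8 had Ex3abERKO means of 0.52 and -3.19, above both single knockouts. Dmrt1, a male-pathway factor, had no array well above background in either group.

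Fshr, the follicle-stimulating hormone receptor, differed by 0.75 ± 0.38, adjusted p = 0.446 (interval -0.067 to 1.56), and Lhcgr, the luteinizing hormone receptor, by 0.031 ± 0.57, adjusted p = 0.991 (interval -1.19 to 1.25). Star, which moves cholesterol into mitochondria, was 3.33, 4.02, 3.26 and 3.27 in Ex3aERKO and 2.42, 2.94, 2.82 and 1.60 in Ex3bERKO, so the groups did not overlap, and the difference of 1.02 ± 0.44, adjusted p = 0.332 did not pass. Cyp11a1, which makes pregnenolone, differed by -0.88 ± 0.32, adjusted p = 0.212. Prlr, the prolactin receptor, differed by 0.17 ± 0.31, adjusted p = 0.91, and Kitl, the ligand of Kit, by 0.43 ± 0.29, adjusted p = 0.631. Mmel1, a membrane peptidase, was -1.05, -1.83, -2.37 and -1.98 in Ex3aERKO and -3.27, -2.87, -2.82 and -3.12 in Ex3bERKO, with no overlap and 1.21 ± 0.72, adjusted p = 0.554. Here too the standard error holds the spread of the control and Ex3abERKO arrays.

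In 18 of the 38 lists limma called no gene in either direction. They hold 310 different genes that were tested, of which 65 (21.0%) had an unadjusted p under 0.05, against 13.2% of all features. Of 24 cholesterol synthesis genes, 17 had a positive difference and the median was 0.13. Of 25 genes of oxidative phosphorylation 24 were negative, with a median of -0.19 and Uqcrc1, a subunit of complex III, furthest by t at -0.32 ± 0.14, adjusted p = 0.354. All 10 genes of antigen presentation by MHC class II were positive, with a median of 0.21 and Ciita, their master regulator, at 0.48 ± 0.45, adjusted p = 0.769. Within slides 1, 3 and 4 the median of this list was 0.13, 0.29 and -0.35. Complement (C4b, 1.69 ± 0.45, adjusted p = 0.0682), lipid-laden macrophages (Mmp9, 1.76 ± 0.45, adjusted p = 0.0551), chemokines (Cxcl14, -1.12 ± 0.29, adjusted p = 0.0651), adipose tissue (Cfd, -3.64 ± 1.07, adjusted p = 0.107), lymphocytes and plasma cells (Tnfrsf17, 0.95 ± 0.37, adjusted p = 0.247) and interferon response (Mx1, 0.52 ± 0.34, adjusted p = 0.602) are given by the member with the largest t. The same holds for estrogen synthesis (Cyp19a1, above), cholesterol uptake (Lcat, 1.15 ± 0.33, adjusted p = 0.0927), Hedgehog signalling (Cdon, 0.60 ± 0.19, adjusted p = 0.148), retinoic acid (Cyp26b1, 1.52 ± 0.49, adjusted p = 0.152), the IGF system (Igf2, 1.28 ± 0.42, adjusted p = 0.157), tight junctions (Cldn11, above) and erythroid genes (Epor, 0.55 ± 0.21, adjusted p = 0.228). Acat2, a cholesterol pathway enzyme, was at 0.82 ± 0.35, adjusted p = 0.315. With slide as a random block Mmp9 passed, with adjusted p = 0.0492. Without Ex3bERKO replicate 2, C4b, Mmp9 and Epor passed, as did C4b, Mmp9 and Muc16 without Ex3aERKO replicate 4, Cfd without Ex3bERKO replicate 3, and Cxcl14 without control replicate 1 or Ex3abERKO replicate 1.

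**Figure D5:**
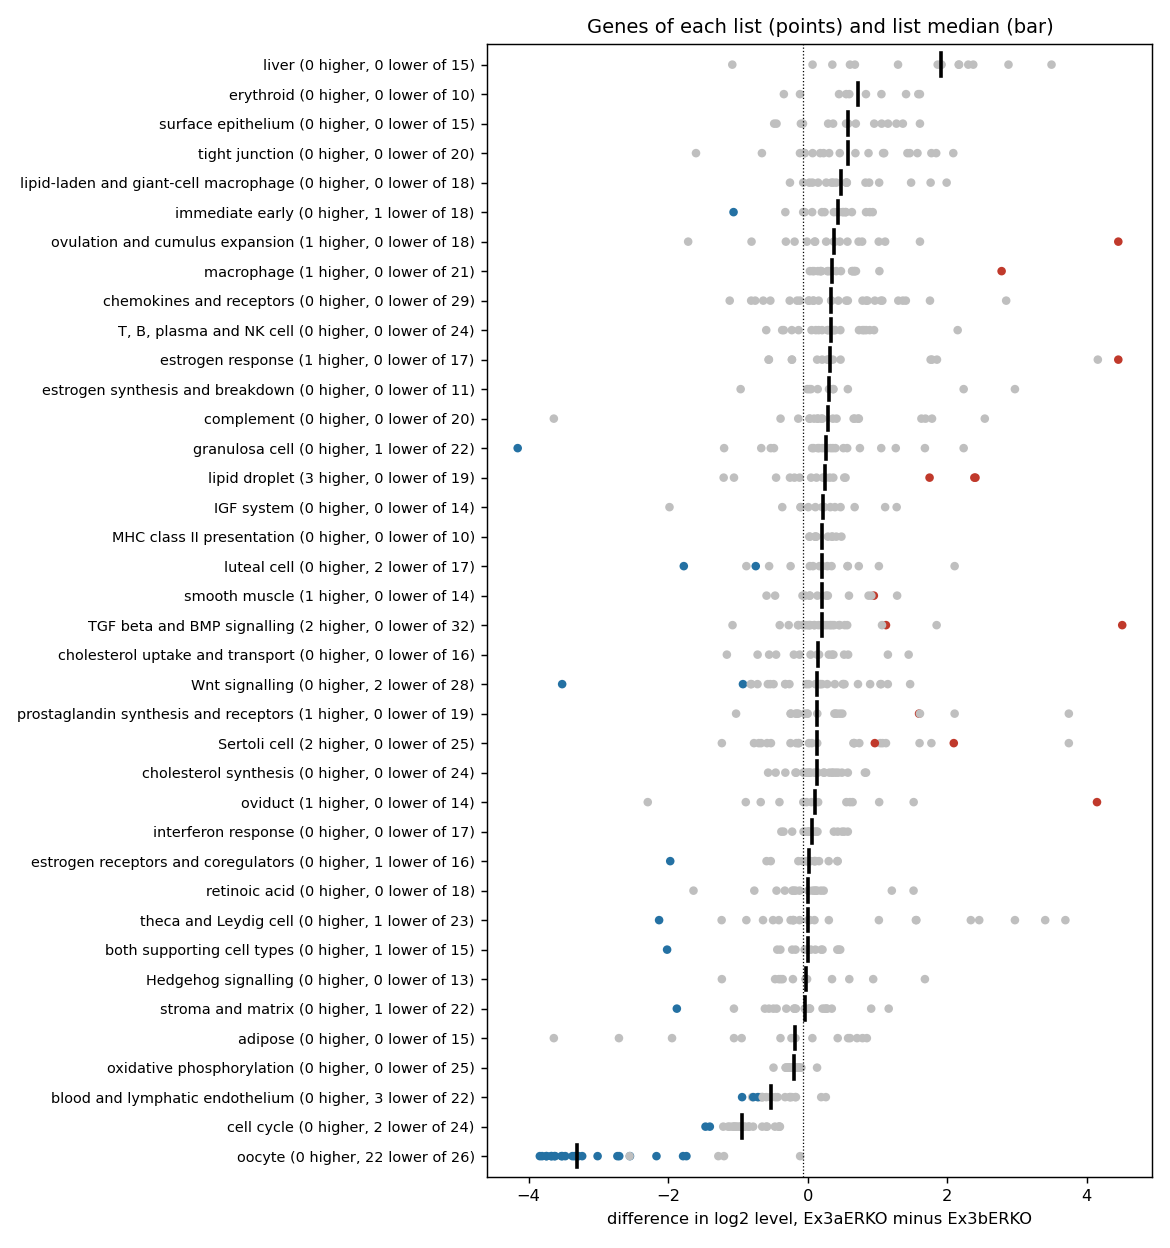
Differences in log2 level (Ex3aERKO minus Ex3bERKO, horizontal) of every tested gene (points) in 38 lists (vertical), with the list median as a black bar and the median of all features as a dotted line. Called genes are red (higher) or blue (lower), and the oocyte list, with 22 of 26 called lower and a median of -3.31, lies apart from the others.

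The remaining groups place the called genes. Among the 413 called lower in Ex3aERKO, the control mean was nearer to Ex3bERKO than to Ex3aERKO for 371, and the Ex3abERKO mean was nearer to Ex3aERKO for 344. Among the 158 called higher, the control mean was nearer to Ex3bERKO for 142 and the Ex3abERKO mean nearer to Ex3aERKO for 97. Zp3 had a control level of 1.74 ± 0.50 and an Ex3abERKO level of -0.78 ± 0.17 (SD), beside -1.39 ± 1.10 in Ex3aERKO and 2.45 ± 0.69 in Ex3bERKO. Bhmt went the other way in Ex3abERKO, with a mean of -1.28, nearer to Ex3bERKO. These positions are descriptions without a test. They were counted for called features only, so the share over all features is not known. Many of the lower genes are oocyte genes that moved together and are not separate instances. The values of all 4 Ex3aERKO arrays lay on one side of all 4 Ex3bERKO values for 518 of the 571 called features, and this held for 8.4% of all features.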

How the data were processed

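RNA from whole ovaries was labelled with Cy3 and hybridised to single-colour Agilent arrays, 16 in 4 groups of 4. The deposited intensity values are processed spot signals from Agilent Feature Extraction 9.5.3.1, per the file headers (9.5 in the submitters' processing notes), with background and spatial trend subtracted and no normalization between arrays. Each array was divided by its 75th percentile and log2 was taken. Control spots and outlier spots were left out, and spots of a probe were averaged. Of 41174 probes 36223 were kept, for which 4 or more of the 16 arrays were well above background. A gene with several kept probes is represented by the probe with the highest mean signal, which gave 24435 features. All 16 arrays were fitted as 4 group means with limma 3.58.1 (R 4.3.3; lmFit and eBayes, 12 residual degrees of freedom), and p-values were adjusted by Benjamini-Hochberg over all features, with 0.05 as the threshold. Where all spots of a probe were outliers on an array the mean of its group was used (124 probe values). A fold of "at least" sets the bright group's mean against the dim group's, taken per array as the higher of the lowest well-detected signal and the probe's own.

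The fit was tested on simulated data in which each gene had the same spread in all 4 groups, and unequal spread was not simulated. Named genes were the 15 largest non-overlapping called differences in each direction among genes with a symbol that were well above background on all 4 arrays of a group, up to 4 called members per list and direction (or the member with the largest t), and a set of index genes, of which Pgr had no kept probe. Some genes that this rule names are not reported here. The members and lists were chosen with earlier results of these data known. Alternatives covered background correction, scaling, the filter, slide, the replicate block, array weights and arrays left out.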

Additional observations from a re-analysis of the deposited data

Results flagged for a closer look

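In 22 of the 254 sets of 4 arrays examined, 1 array stood apart from the other 3 by Dixon's gap ratio. The ratio is relative to the range of the 4 values, so a small gap can be flagged. Chance alone gives about 1 in 20 for independent sets. These sets share arrays and cells, so their number cannot be set against that rate. Each level below is set against the range of the other 3 arrays of the same group. Ex3bERKO replicate 2 was low in genes of the oocyte and its gene families, with Nlrp4b at -1.65 against 0.17 to 0.29, Fbxw26 at -1.02 against 0.98 to 1.29, Fbxw14 at 0.31 against 2.26 to 2.41, Fbxw16 at -0.92 against 0.99 to 1.34, 4933427D06Rik at -4.02 against -2.06 to -2.03. It was likewise low in further genes of this kind, with Btg4 at -2.25 against -0.27 to 0.011, Omt2b at -1.47 against 0.44 to 0.80, Npm2 at 0.83 against 2.40 to 2.62, Bmp15 at -1.77 against -0.031 to 0.13, Gdf9 at 2.88 against 4.66 to 4.94. These genes share cells, so they are not separate instances. Ex3aERKO replicate 4 was low in several genes of other roles, with Esr1 at -3.66 against -2.19 to -1.89, Lum at 1.80 against 2.76 to 2.86, Myc at -0.22 against 0.18 to 0.22, Insl3 at 6.49 against 6.72 to 6.74, Ptgds at 5.03 against 5.57 to 5.67. The median level of the Wnt signalling list was also low there (-2.61 against -1.30 to -1.22). Ex3aERKO replicate 2 was high in liver genes, with a median of the liver list at 1.5 against -5.27 to -4.85, and in Star, with Star at 4.01 against 3.26 to 3.33. In Ex3bERKO replicate 4, low values were found for Sox9 at -2.83 against -1.84 to -1.66, for the median of the MHC class II presentation list at -0.0796 against 0.70 to 0.81, and for the median of the surface epithelium list at -0.57 against 0.79 to 0.83. In Ex3bERKO replicate 3 the signal was high for Obp2a at -7.47 against -9.13 to -9.01, where all 4 values were not well above background. Why these arrays differ was not tested.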

How the results depend on the processing

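The number of called features was 571 and moved by more than 1.5 times under 8 alternatives, of which 4 leave out 1 array. With normexp background correction it was 230 (45 higher, 185 lower), and in a fit to the 8 compared arrays 117 (33 and 84). Without Ex3aERKO replicate 2, Ex3abERKO replicate 2 and control replicate 4 it was 232 (47 and 185), and with array weights 1615 (541 and 1074). Leaving out 1 array at a time gave 282 to 870 called, with 70 to 282 higher and 212 to 599 lower, and the 4 beyond 1.5 times were 282 without Ex3bERKO replicate 4, 311 without Ex3bERKO replicate 1, 348 without Ex3aERKO replicate 2 and 870 without Ex3bERKO replicate 2. The other alternatives gave 483 to 714. Of 55 named genes that were called, 44 were called with slide as a fixed block, 55 with slide as a random block, 37 with normexp, 18 with the 8 arrays and 28 without the 3 arrays, and 34 kept their call with each of the 16 arrays left out in turn. None of the 55 changed sign under any of these. With the replicate block the count was 483 (147 higher, 336 lower), and 49 of the 55 were called, without Amh, Plin5, Cidea, Erg, Mt3 and Ccnb1 (adjusted p 0.0692, 0.0637, 0.0678, 0.0678, 0.104 and 0.0551). Deviations of same-numbered arrays correlated at 0.308, 0.451, -0.027 and 0.155. The first and second of these pairs also share a slide, and the third pair does not correlate, so the numbers were not taken to pair the samples. The genes that changed sign were all far from the threshold. Cyp17a1 was -0.086 with normexp and -0.020 without the 3 arrays, and -0.14 to 0.24 with 1 array left out. Lhcgr was -0.060 without the 3 arrays, and -0.46 to 0.36 with 1 left out. Foxl2, Sox8 and Prlr ranged from -0.043 to 0.15, from -0.017 to 0.46 and from -0.030 to 0.30 with 1 array left out. The cause was not tested. Median and quantile scaling moved the median of all features to -0.034 and -0.036. Probes dim on every array of a group give bounds only.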
